A study of Mus musculus with 2 samples.

Results

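The lysosome and autophagy genes were a set of 37 genes chosen by name: 12 lysosomal hydrolases, 6 genes of the lysosomal membrane and of lipid handling, 4 subunits of the proton pump, 2 transcription factors of the lysosomal gene programme and 13 autophagy factors. They were taken from 27790 genes and transcripts on a whole-genome array, and the question was how their RNA levels differed between a mouse melanoma cell line grown from dormant cells and the line it descended from. B16F1 is a melanoma line of C57BL/6 mice. B16F1-GFP-M, called maternal, was B16F1 transfected to express green fluorescent protein. B16F1-GFP-D was grown from a single colony of GFP-positive cells sorted from the pooled organs of tumour-free mice, both immunised against the melanoma and not, a year after they had been injected with B16F1-GFP cells. B16F1-GFP-D is therefore 1 clone. Both lines carried the same GFP vector and were grown untreated in the same medium with fetal bovine serum, and total RNA was extracted from the cultures.

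RNA of both lines was hybridised together on 2 two-colour arrays of 1 slide. On array 1 B16F1-GFP-M was labelled with Cy5 and B16F1-GFP-D with Cy3, and on array 2 the dyes were exchanged. The arrays were counted as 1 replicate of each line, so no difference between the lines was tested and no p-value is given. Ratios are on the log2 scale and give the level of B16F1-GFP-D relative to B16F1-GFP-M, so that -1 is a level 2-fold lower in B16F1-GFP-D, and each SD is the spread between the 2 arrays, which is technical and includes the dyes. A gene was measured by its brightest probe and was called detected when the same line, or both lines, stood well above background on both arrays, which 12540 genes did. The median of the detected genes was -0.01 and their pooled SD between arrays was 0.15. A gene was called higher or lower when each array showed a difference of 2-fold or more and both went the same way, so that calls rest on size alone.

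Lysosomes are acidic organelles in which hydrolases cut proteins, glycans and lipids into their building blocks, and the vacuolar proton pump supplies the acid that most of these enzymes need. In autophagy a double membrane encloses cytoplasm and delivers it to the lysosome, and it is built by a set of ATG proteins that couple small ubiquitin-like proteins of the ATG8 family to membrane lipid. Transcription factors of the MiT/TFE family, among them TFEB, TFE3 and the melanocyte factor MITF, bind E-boxes in the promoters of many lysosomal genes. Melanocytes also make melanosomes, pigment organelles related to lysosomes.

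All 37 members were on the array, and 36 were detected, each of them in both lines. The exception was Gabarapl2, an ATG8 family member, whose only probe was well above background in B16F1-GFP-M on array 1 and in B16F1-GFP-D on array 2, so that neither line passed on both arrays. The members' ratios leaned towards B16F1-GFP-M. Of the 36 detected members 23 were below 0 on both arrays, at any size, or 63.9%, where 42.8% of all detected genes were, and 7 were above 0 on both, or 19.4%, where 41% of all detected genes were. The median of the members was -0.24, at -0.32 on array 1 and -0.21 on array 2. This lean depended on the scaling. When each array was centred on its median in place of the intensity-dependent (loess) correction, the members' median was -0.02. The median of all detected genes was then 0.07 in place of -0.01. Of 36 members 19 (52.8%) had a mean below 0 in place of 27 (75%), beside 43.4% of all detected genes in place of 50.8%.

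At 2-fold, 3 members were called lower in B16F1-GFP-D, namely the protease gene Ctsl, the ion channel gene Mcoln1 and the ATG8 gene Gabarapl1. Over all detected genes 1.94% were called lower. With median centring none of the 3 calls was kept, at -0.92, -1.07 and -0.94, and over all detected genes 45 were called higher and 19 lower in place of 387 and 243. No member was called higher, where 3.09% of all detected genes were. At the looser rule of 1.5-fold on each array 6 members were lower, adding Gaa, Sqstm1 and Atg12, and 1 was higher, Gusb. The rates over all detected genes by that rule were 7.02% lower and 8.77% higher.

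The array measured each gene by an oligonucleotide of 60 bases. The first 30 bases of the probes behind the largest differences are given here, to show which transcripts the values stand for, with the place of the whole probe on mouse genome build mm9 as the array files give it. The place of these probes within exons or untranslated regions was not annotated in the files used here.
Ctsl, chr13:64465287-64465346, minus strand: accaaacccttattgagtcaaaccatggta
Mcoln1, chr8:3515110-3515169, plus strand: tttttagaatttgctttaaaagatctgcgt
Gabarapl1, chr6:129492254-129492313, plus strand: caatctgtacgtctgttttgtcagcttcag
Sqstm1, chr11:50013670-50013729, minus strand: cacaggacccccatgtagcttcctctgact
Gaa, chr11:119146331-119146390, plus strand: cctgtctcactgctgatgggagagctgttt
Gusb, chr5:130465133-130465192, minus strand: ttagttttttggccttggctttgtgaactc

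Of the 12 lysosomal hydrolases, all detected, 10 were lower in B16F1-GFP-D and 2 higher, each on both arrays. Their median was -0.32, at -0.36 on array 1 and -0.29 on array 2, and single genes ran from -1.20 to 0.90. With median centring the median was -0.13, where that of all detected genes was 0.07.

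Ctsl encodes cathepsin L, a cysteine protease, and was the lowest of the hydrolases. Its normalized log2 intensity on array 1 was 12.65 in B16F1-GFP-D and 13.74 in B16F1-GFP-M. On array 2 it was 12.61 and 13.92. B16F1-GFP-D was the lower line under either dye, with ratios of -1.09 and -1.31 and a mean of -1.20 ± 0.15 (SD, 2 arrays), a level 2.30-fold lower, or -0.92 and no call with median centring. Only 166 of the 12540 detected genes had a lower mean. Ctsl lies on chromosome 13, where the median of 441 detected genes was -0.16, one of the 3 lowest chromosome medians. The part of the chromosome in the value of Ctsl was not tested.

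Gaa encodes the acid glucosidase that degrades glycogen in lysosomes. On a log2 scale its intensity was 12.06 in B16F1-GFP-D and 12.82 in B16F1-GFP-M on array 1, and 12.16 and 12.90 on array 2. The ratios of -0.77 and -0.74 lay close together, and their mean was a level 1.68-fold lower in B16F1-GFP-D. Gusb encodes beta-glucuronidase, which acts on glycosaminoglycans, and ran the other way. The log2 intensity of Gusb was 12.82 in B16F1-GFP-D and 11.81 in B16F1-GFP-M on array 1, and 12.70 and 11.90 on array 2. The ratios were 1.01 and 0.79, so that Gusb passed 2-fold on array 1 alone, with a mean 1.87-fold higher in B16F1-GFP-D. A separate probe of Gusb gave 0.91 and 0.81. With either probe and on either array Gusb was therefore higher in B16F1-GFP-D, whereas most of the other hydrolases of the set were lower.

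**Figure D1:**
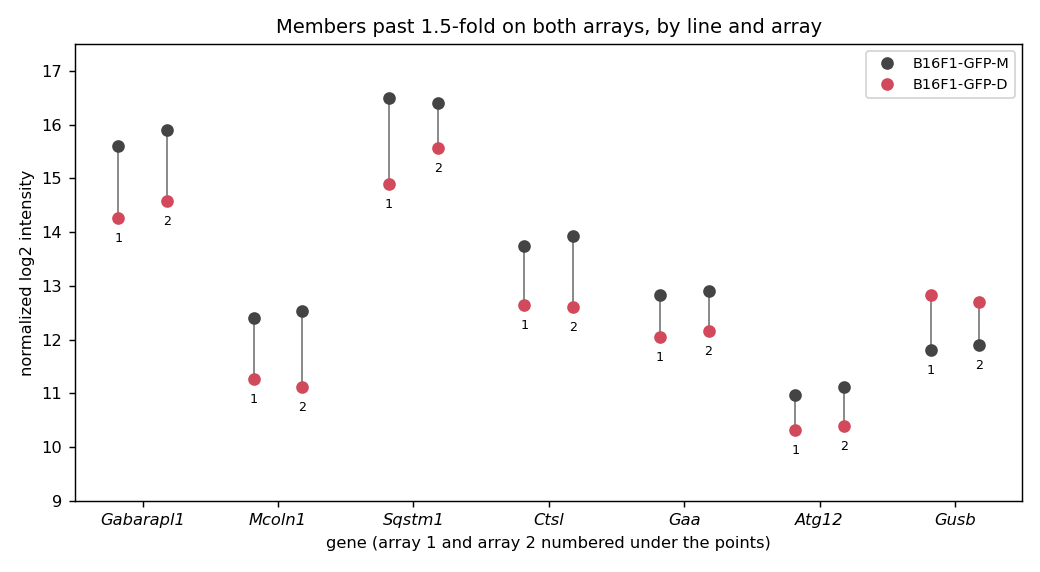
Normalized log2 intensity (vertical axis) of the 7 members past 1.5-fold on both arrays, in B16F1-GFP-M (dark) and B16F1-GFP-D (red), with the array numbered under each pair of points. B16F1-GFP-D lies below B16F1-GFP-M on both arrays for 6 genes and above it for Gusb, and the gap of Sqstm1 is larger on array 1 than on array 2. Levels of different genes are not comparable, since each is read by its own probe.

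The other proteases differed less. Ctsd, the gene of the aspartic protease cathepsin D, stood at -0.57 ± 0.14, and Ctsa, the gene of cathepsin A, at -0.46 ± 0.06. Ctsz, the gene of the carboxypeptidase cathepsin Z, was at -0.18 ± 0.19, within the spread between the arrays. Ctsb, the gene of the cysteine protease cathepsin B, was at 0.44 ± 0.14, and its other detected probe also gave 0.44. The 5 cathepsin genes of the set thus ran from -1.20 for Ctsl to 0.44 for Ctsb, and they did not move together.

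Among the enzymes that act on glycans and glycolipids, Hexa (a subunit of beta-hexosaminidase) was at -0.50 ± 0.06, Neu1 (the lysosomal sialidase) at -0.40 ± 0.08 and Glb1 (beta-galactosidase) at -0.25 ± 0.03. Naglu, whose product acts on heparan sulphate, was at -0.03 ± 0.02. Lipa, the gene of the lysosomal acid lipase, was at -0.20 ± 0.05. Of these genes Hexa had the largest difference, 1.41-fold lower in B16F1-GFP-D, and none reached 1.5-fold on both arrays.

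The 6 genes of the membrane and of lipid handling had a median of -0.15, or 0.09 with median centring, and did not share a direction. Mcoln1 encodes TRPML1, a channel that releases calcium from lysosomes. Log2 intensities of Mcoln1 were 11.27 in B16F1-GFP-D and 12.40 in B16F1-GFP-M on array 1, and 11.12 and 12.53 on array 2. B16F1-GFP-D was lower on both, by -1.14 and -1.40, with a mean of -1.27 ± 0.19, or 2.41-fold, and the mean was -1.07, with no call, under median centring. A second probe of Mcoln1 was not well above background and gave -0.02. Taking the median of both probes gave a ratio of -0.65, and the call was lost.

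Lamp1 and Lamp2 encode the most abundant glycoproteins of the lysosomal membrane. Lamp1 was at -0.53 ± 0.23. Lamp2 was at -0.28 ± 0.11 with its brightest probe and at -0.92 ± 0.41 with a second detected probe, which gave -0.63 on array 1 and -1.21 on array 2. Whether both probes read the same Lamp2 transcripts was not tested.

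The genes of lipid handling did not follow the hydrolases. Psap, which encodes the precursor of the saposins, activators of sphingolipid breakdown, was at 0.60 ± 0.34, with 0.84 on array 1 and 0.35 on array 2, and its second probe was at 0.63 ± 0.10. Npc1, the gene of the membrane protein that exports cholesterol from lysosomes, was at 0.52 ± 0.16. Npc2, the gene of its soluble partner, was at -0.03 ± 0.23, with opposite signs on the arrays. Both arrays showed Psap and Npc1 at the higher level in B16F1-GFP-D, below 1.5-fold on array 2 for Psap and on array 1 for Npc1.

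The median of the proton pump changed sign between the arrays, and its size depended on the scaling. Of its 4 measured subunits 1 was lower on both arrays, 1 was higher on both and 2 changed sign between arrays. The median was 0.02, at -0.22 on array 1 and 0.05 on array 2. With median centring it was 0.20, and 0 of the 4 had a mean below 0, where the median of all detected genes was 0.07. Atp6v0c, the gene of the ring subunit through which protons pass, was at 0.11 ± 0.13. Atp6v0d1, the gene of a subunit that joins the ring to the stalk, was at -0.16 ± 0.09. Atp6v1h, the gene of a regulatory subunit, was at -0.06 ± 0.21. Atp6v1a, the gene of the catalytic subunit, had the widest spread between arrays of all detected members, with -0.33 on array 1 and 0.70 on array 2, while its second probe gave 0.31. The direction of Atp6v1a was not settled by these arrays.

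Both transcription factor genes were lower on both arrays. Tfeb was at -0.42 and -0.45, with a mean of -0.44 ± 0.02, and Tfe3 at -0.08 and -0.37, with a mean of -0.23 ± 0.21. A second probe of Tfe3 gave -0.25. Tfeb was 1.35-fold lower in B16F1-GFP-D, short of 1.5-fold. Tfeb lies on chromosome 17, as do Neu1 and Atp6v0c. The median of 615 detected genes there was -0.17, the lowest chromosome median. The part of the chromosome in the values of these members was not tested.

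**Figure D2:**
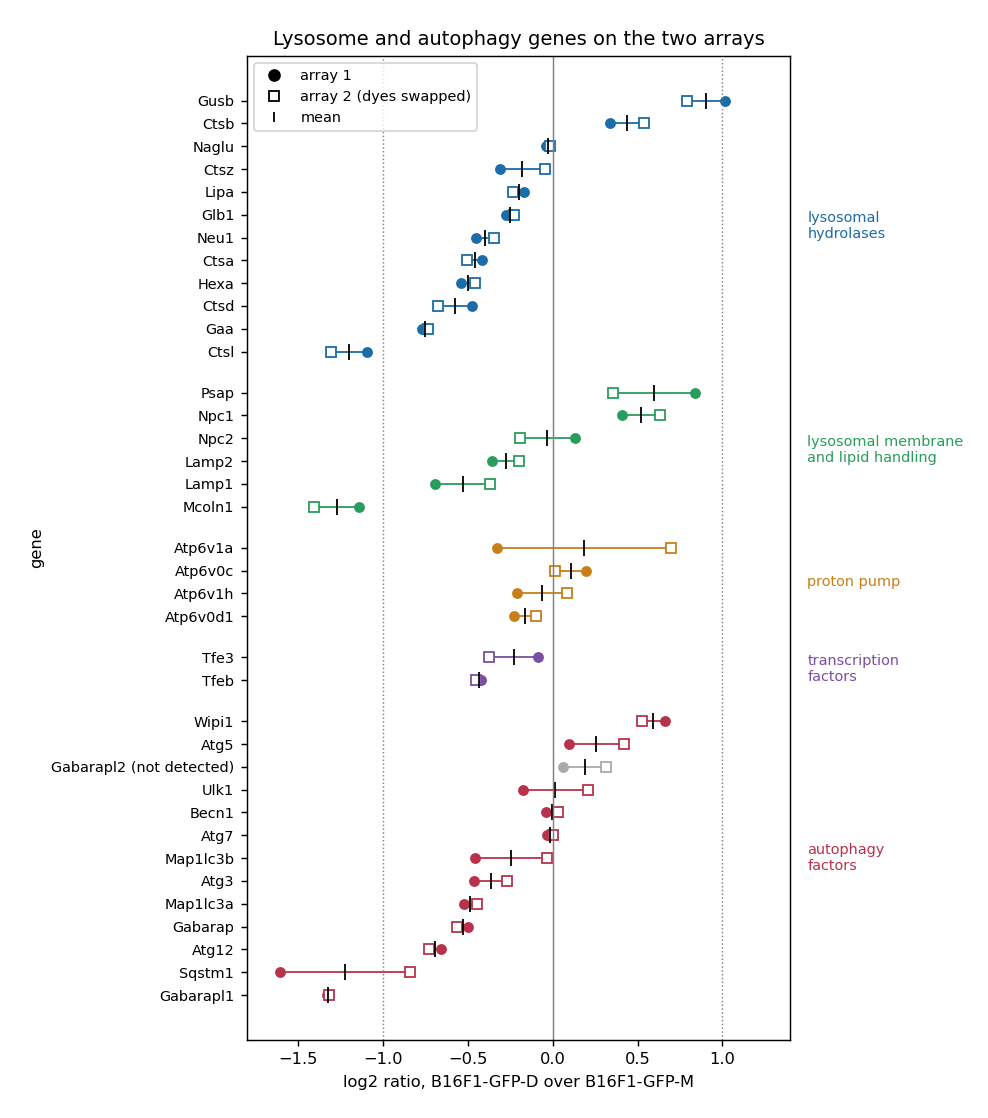
Log2 ratio, B16F1-GFP-D relative to B16F1-GFP-M (horizontal axis), of the 37 members (rows), by role, with array 1 as filled circles, array 2 as open squares and the mean as a tick; dotted lines mark 2-fold. Ctsl, Mcoln1 and Gabarapl1 lie beyond the line at -1 on both arrays. The means of the 4 proton pump subunits lie around 0, with Atp6v1a at -0.33 on array 1 and 0.70 on array 2.

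Of the 13 autophagy factors 12 were detected, 7 of them lower on both arrays, 2 higher on both and 3 of mixed sign. Their median was -0.30, at -0.46 on array 1 and -0.15 on array 2, -0.14 with median centring and -0.09 with the median over each gene's probes. With Gabarapl2, which was above background on array 2 taken alone, the median of array 2 was -0.03. Among the 7 were 4 genes of the ATG8 family and Sqstm1, the gene of a cargo receptor that binds ATG8 proteins.

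Gabarapl1, a member of the ATG8 family, had the lowest mean of all 36 detected members. Log2 intensities of Gabarapl1 were 14.27 in B16F1-GFP-D and 15.59 in B16F1-GFP-M on array 1, and 14.58 and 15.90 on array 2. The ratios of -1.33 and -1.32 were almost equal under the exchanged dyes, and their mean was a level 2.50-fold lower in B16F1-GFP-D, with 122 of 12540 detected genes below it. A second, dimmer probe of Gabarapl1 gave -0.86 and -0.79, also lower but short of 2-fold. The other detected ATG8 genes were lower as well, with Gabarap at -0.53 ± 0.05, Map1lc3a at -0.48 ± 0.05 and Map1lc3b at -0.24 ± 0.30, so that all 4 detected ATG8 genes were lower on both arrays with their brightest probe, at a median of -0.51. Map1lc3b had a second detected probe of the opposite sign, at 0.16 and 0.23. With median centring Map1lc3b was at 0.02 with its brightest probe, and the other 3 stayed below 0, Gabarapl1 at -0.94 and no longer called.

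The pair of Map1lc3b probes is shown because they disagree in direction.
Map1lc3b, brightest probe, chr8:124121771-124121830, plus strand: cactgctctgtcttgtgtaggttgtatacg
Map1lc3b, second probe, chr8:124119924-124119983, plus strand: cgtcctggacaagaccaagttcctggtgcc

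Sqstm1 encodes p62, which also binds ubiquitinated cargo and is itself degraded by autophagy. Its log2 intensity was 14.89 in B16F1-GFP-D and 16.50 in B16F1-GFP-M on array 1, and 15.56 and 16.41 on array 2. B16F1-GFP-D was lower on both, by -1.61 and -0.84, and the mean of -1.22 ± 0.54 was 2.34-fold. Sqstm1 therefore missed the call on array 2 alone and would have been called by the mean of the arrays. It had 1 probe on the array. Just inside the threshold of 2-fold on each array stood Ctsl, whose smaller ratio was -1.09, and just outside it stood Sqstm1.

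Atg12, the gene of the ubiquitin-like protein that is joined to ATG5, was lower with each of 3 detected probes, at -0.69, -0.88 and -0.73. The brightest gave -0.66 on array 1 and -0.73 on array 2, or 1.62-fold lower. Its partner Atg5 was at 0.26 ± 0.23. The gene of the conjugating enzyme Atg3 was at -0.37 ± 0.13, whereas Atg7, the gene of the activating enzyme of the same reactions, was at -0.01 ± 0.02. Genes of the same conjugation steps thus had ratios on both sides of 0.

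Of the members that act early in autophagosome formation, Ulk1, the gene of the initiating kinase, was at 0.01 ± 0.27 and Becn1, the gene of beclin 1, which belongs to the lipid kinase complex, at 0.00 ± 0.05. Wipi1, the gene of a protein that binds the lipid made by that complex, was the highest autophagy factor at 0.59 ± 0.10, or 1.51-fold higher in B16F1-GFP-D, and its second probe also gave 0.59. On array 2 it stayed below 1.5-fold, at 0.52.

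**Figure D3:**
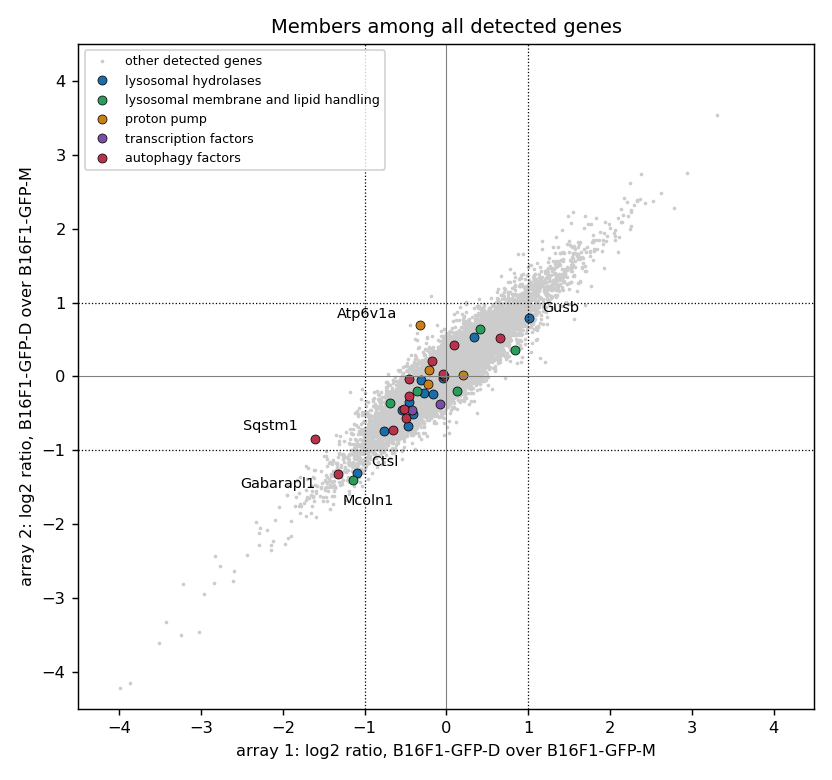
Log2 ratio on array 2 (vertical axis) against array 1 (horizontal axis) for all 12540 detected genes (grey) and the 36 detected members (coloured by role); dotted lines mark 2-fold. Ctsl, Mcoln1 and Gabarapl1 lie in the lower left corner that holds 1.94% of detected genes, Sqstm1 and Atp6v1a lie off the diagonal, and Gusb lies at the border of 2-fold.

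The hydrolases and the autophagy factors had nearly the same median, and both lay below that of the proton pump. The hydrolases were below the pump by 0.14 on array 1 and by 0.34 on array 2, and the autophagy factors by 0.24 and 0.20, the last resting on the 12 autophagy factors without Gabarapl2. The hydrolases were above the autophagy factors by 0.10 on array 1 and below them by 0.14 on array 2, so those 2 lists had no settled order. With median centring the medians were -0.13, -0.14 and 0.20, and the order against the pump stayed. With 4 pump genes and 1 replicate of each line these are descriptions of the medians. The spread within each list was wider than the distance between them, from -1.20 to 0.90 for the hydrolases and from -1.32 to 0.59 for the autophagy factors, against -0.16 to 0.18 for the pump.

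Of the members, 19 were read by more than 1 detected probe. These had 21 further detected probes, of which 18 had the sign of the brightest probe and 13 were within 0.2 log2 units of it. The exceptions in sign were Map1lc3b, Glb1, whose second probe was at 0.05, and Atp6v1h, whose second probe was at 0.03. On arrays 1 and 2 the brightest probe of Map1lc3b gave -0.46 and -0.03. That of Glb1 gave -0.27 and -0.22, and its second probe -0.02 and 0.12. For Atp6v1h the brightest probe gave -0.21 and 0.08, and the second -0.14 and 0.20. Apart from Lamp2, Gabarapl1 and Map1lc3b, the largest differences were those of Ctsd, at -0.57 and -0.19, and Neu1, at -0.40 and -0.07. The lower values of Ctsd and Neu1 thus came from the brighter probe of each.

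**Figure D4:**
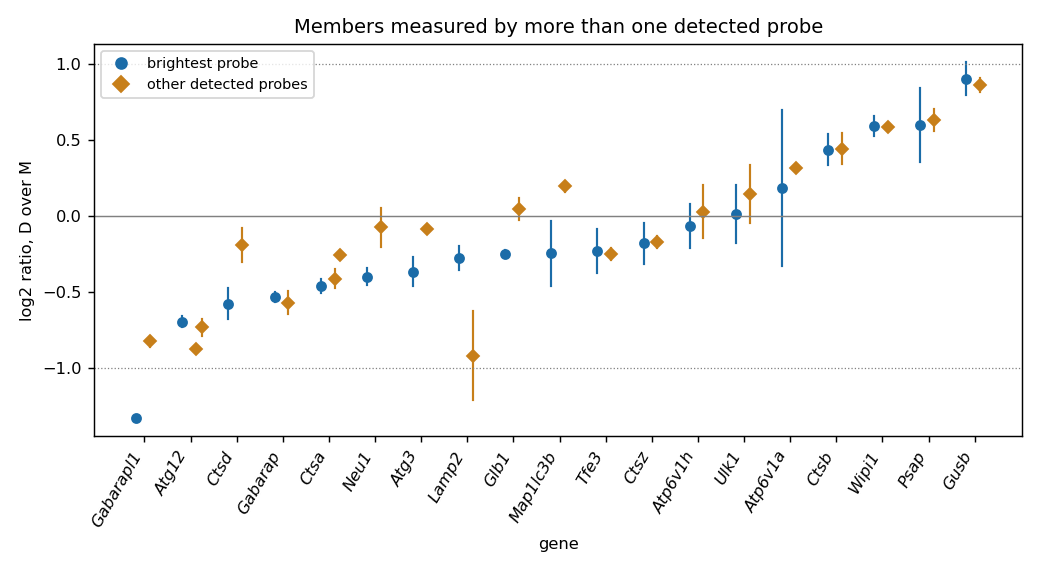
Log2 ratio, B16F1-GFP-D relative to B16F1-GFP-M (vertical axis), of the 19 members with more than 1 detected probe (horizontal axis), with the brightest probe as circles and the others as diamonds; each symbol is the mean and its bar spans both arrays. Gusb, Psap, Wipi1 and Ctsb agree closely between probes, Lamp2 and Gabarapl1 differ in size, and Map1lc3b differs in sign.

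Because MiT/TFE factors bind the letters CACGTG, the promoters of the members were searched for them. RefSeq promoters of build GRCm38.p6, from 250 bases before to 50 after each start, were given for 31 of the 37 members. CACGTG, which reads the same on both strands, was in 13 of the 31 (41.9%), against 12.1% of 8964 detected genes and 8.09% of all 27025 genes of the table. The longer form TCACGTGA, which contains it and also reads the same on both strands, was in 6 members (19.4%), against 2.37% of detected genes and 1.12% of all. TGATGCAA, a sequence bound by the stress factor ATF4 and searched on both strands, was in 0 of the 31 members and 1.03% of all genes. A match describes the letters and is not evidence that a factor bound there. The shares of the members follow from which genes were chosen by name and say nothing on the difference between the lines.

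The windows below are from promoters of members with CACGTG that had lower values, and of Atp6v1a, which had the letters and no settled direction. Of the members with the letters, Ctsa, Glb1, Atg3 and Atp6v0d1, with means from -0.46 to -0.16, are not shown. Neither are Naglu at -0.03, Atg7 at -0.01 and Atg5 at 0.26. Each window lies before the start, and CACGTG is in capitals.
Mcoln1, chr8:3500438-3500497, plus strand: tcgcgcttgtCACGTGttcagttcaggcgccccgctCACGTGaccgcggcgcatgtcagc
Ctsl, chr13:64370711-64370770, minus strand: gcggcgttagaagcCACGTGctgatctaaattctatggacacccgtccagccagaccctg
Gaa, chr11:119267803-119267862, plus strand: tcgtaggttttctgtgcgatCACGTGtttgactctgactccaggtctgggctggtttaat
Ctsd, chr7:142387886-142387945, minus strand: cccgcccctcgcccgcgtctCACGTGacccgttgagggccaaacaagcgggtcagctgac
Lamp1, chr8:13159090-13159149, plus strand: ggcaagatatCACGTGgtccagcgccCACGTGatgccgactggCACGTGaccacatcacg
Atp6v1a, chr16:44139351-44139410, minus strand: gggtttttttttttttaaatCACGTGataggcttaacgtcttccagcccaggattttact

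Mcoln1 had CACGTG beginning 71 and 45 bases before the start, and Lamp1 had it 4 times, beginning 61, 45, 28 and 15 bases before. In Ctsl it began 236 bases before the start and in Gaa 140. Neither Gabarapl1 nor Sqstm1, both lower, nor Gusb, which was higher, had the letters in this window. The 13 members with CACGTG had a median ratio of -0.37, from -1.27 to 0.26, with 11 (84.6%) below 0. The 17 detected members without it had a median of -0.23, from -1.32 to 0.90, with 12 (70.6%) below 0. The ranges overlapped over most of their length. Over all detected genes the medians were -0.05 with CACGTG and -0.01 without it, and 53.6% and 51.1% were below 0. These values are under the loess correction only.

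A further 133 genes of the same roles, in 5 lists, were examined in the same way, and 118 were detected. Of these 2 were called higher and 1 was called lower at 2-fold, fewer than the 3.09% and 1.94% of all detected genes would give. The calls of these genes are given under the loess correction only. Genes of these lists that are named without a call were chosen after their values were seen. The 30 detected genes of other lysosomal hydrolases had a median of -0.20, or -0.04 with median centring, with 18 lower on both arrays and 9 higher on both. The gene called lower was Ctso, which encodes cathepsin O, a cysteine protease. The log2 intensity of Ctso was 7.51 in B16F1-GFP-D and 8.81 in B16F1-GFP-M on array 1, and 7.17 and 8.48 on array 2, a level 2.48-fold lower. With Ctsl, whose call was lost with median centring, Ctso made a pair of cysteine protease genes that were called lower. Ctsb was at 0.44 and Ctsc, the gene of cathepsin C, at 0.57. The further detected cathepsin genes of this list, Ctsh, Ctsf and Ctsk, were at -0.53, -0.34 and -0.20, each lower on both arrays and not called.

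The 14 detected genes of other proton pump subunits had a median of -0.03, near that of all detected genes, or 0.23 with median centring, where 2 of the 14 had a mean below 0 and the median of all detected genes was 0.07. Tcirg1, the gene of a membrane subunit of the pump that is best known from osteoclasts, was called higher. Its log2 intensity was 11.40 in B16F1-GFP-D and 10.36 in B16F1-GFP-M on array 1, and 11.31 and 10.18 on array 2, a level 2.12-fold higher. Of the paralogous subunit genes Atp6v0a1 was at 0.26 and Atp6v0a2 at -0.02.

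The 33 detected genes of other autophagy factors had a median of -0.24, or -0.06 with median centring, with 22 lower on both arrays, 66.7% of the list, and 8 higher on both. Bnip3, the gene of a mitochondrial receptor for autophagy that is known as a target of hypoxia-inducible factor, was called higher. Its log2 intensity was 13.31 in B16F1-GFP-D and 11.54 in B16F1-GFP-M on array 1, and 13.48 and 11.41 on array 2. The ratios of 1.77 and 2.06 gave a level 3.78-fold higher, the largest difference of all members and lists. By 1.5-fold 4 genes of this list were lower, or 12.1%, where 7.02% of all detected genes were. They were Rubcn, Wipi2, Wdr45 and Nbr1. Over all 5 further lists 9 of 118 detected genes were lower by that rule, none of them in the pump or the membrane and sorting list. Wipi2 and Wdr45, of the same protein family as Wipi1, were at -0.85 ± 0.16 and -0.92 ± 0.18, where Wipi1 was at 0.59. Nbr1, the gene of a cargo receptor related to p62, was at -0.82 ± 0.13.

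The 22 detected genes of other lysosomal membrane and sorting proteins had a median of 0.10, or 0.24 with median centring, with 11 higher on both arrays and 6 lower, and none was called. Mcoln2 and Mcoln3, the genes of the channels related to TRPML1, were at 0.24 and 0.14, against -1.27 for Mcoln1. In the list of MiT/TFE factors and lysosomal nutrient sensing 19 genes were detected, with a median of -0.13, or -0.05 with median centring, and 13 lower on both arrays. Mitf was the lowest, at -0.95 and -0.89, or 1.89-fold lower in B16F1-GFP-D, just short of the call on both arrays. Mtor, the gene of the kinase that holds TFEB in the cytoplasm, was at 0.27 ± 0.07 and Mlst8, the gene of a further subunit of its complex, at -0.64 ± 0.01.

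**Figure D5:**
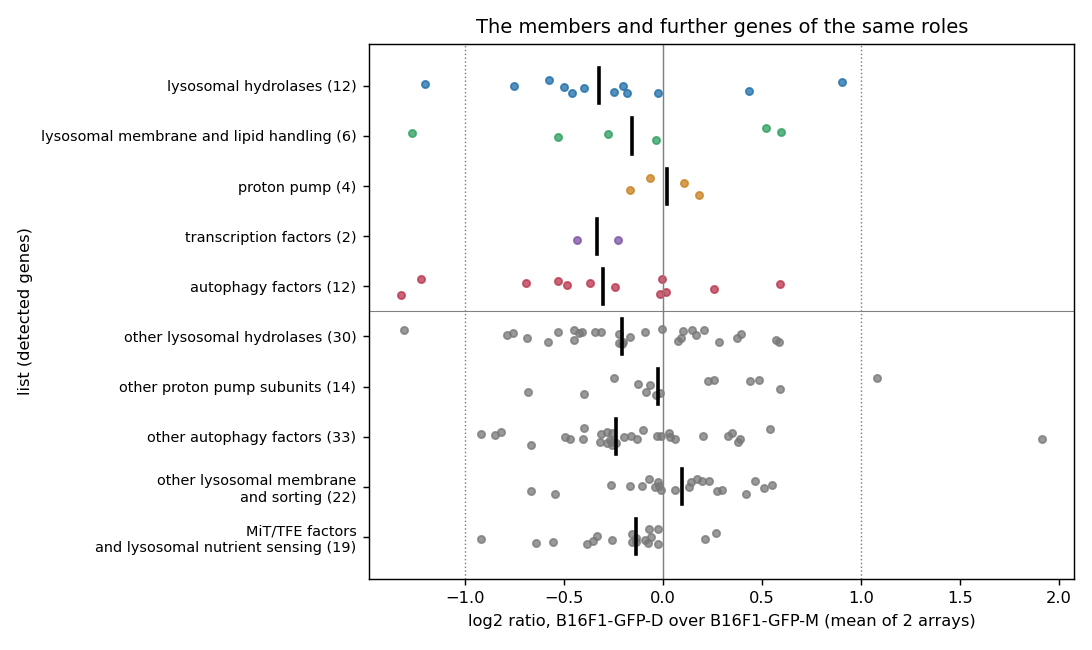
Log2 ratio, B16F1-GFP-D relative to B16F1-GFP-M (horizontal axis, mean of both arrays), of the detected genes of the 5 member lists (coloured) and the 5 further lists (grey), 1 point a gene, with the median of each list as a bar and the number of detected genes beside its name. The medians of the hydrolase and autophagy lists lie below 0 in members and further genes alike, those of the pump lists lie near 0 under the loess correction, and Bnip3 is the point farthest to the right.

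The lines were checked against markers of melanocytes and of the other cells that organs could have contributed. All 8 melanocyte markers were detected. Their median was -0.14, at -0.34 on array 1 and 0.03 on array 2, or 0.18 with median centring. Of the markers 4 were lower on both arrays, 2 were higher on both and 2 had mixed signs. Mitf was the lowest, 1.89-fold lower, and Pmel the highest, at 0.30. Of 8 macrophage markers 6 were not detected, among them Ptprc, Csf1r and Adgre1, and the 2 detected, Lyz2 and Cd68, were at -0.11 and 0.44. Cd68 was dim, with log2 intensities from 6.27 to 6.79. The median of the 2 was 0.17, or 0.74 with the scanner software's ratio, so the size of the difference of Cd68 was not settled. Of 8 fibroblast markers 5 were not detected, among them Col3a1, Dcn and Pdgfra, and none of the other 3 reached 1.5-fold. The median of these 3 was 0.04, or 0.25 with the scanner software's ratio. Fewer cells of a type and less RNA per cell cannot be told apart in RNA of whole cultures.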

How the data were processed

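RNA of both lines, B16F1-GFP-D and its maternal line, was hybridised with exchanged dyes to 2 arrays of 1 slide. The authors scanned them and deposited the spot intensity and local background of each channel, the log10 ratio of Cy5 over Cy3 and its p-value, per the file headers from Agilent Feature Extraction 10.7.3.1 (as in the submitters' processing notes), and a table of processed log10 ratios. Here the mean intensities were corrected with normexp (offset 50) and loess within each array in limma 3.58.1 under R 4.3.3, tested on simulated data. Outlier spots (143 and 176) were left out and spots of a probe averaged, giving 41174 probes. No other column of sample values was left aside. Of 28075 probes with a RefSeq accession 27198 were matched to RefSeq names of GRCm38.p6; other names are those of the array. Per array 44.2% to 60.7% of spots were well above background in a line, and precision is limited by having 2 arrays. The members and lists were chosen with earlier results of these data known. All members were accounted for. Those past 1.5-fold on both arrays, or with probes of opposite sign, were given per array, as were the genes of the further lists called at 2-fold, up to 6 in each direction. Tables were handled with Python 3.11.15 and pandas 2.3.3. Alternatives were the scanner software's ratio, other background corrections and scalings, the deposited table, other detection rules and fold limits, other choices of probe and each array alone.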

Additional observations from a re-analysis of the deposited data

How the results depend on the processing

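No paired analysis was possible because 1 replicate of each line was measured, on a single slide. Across the 7 alternatives that could move a member's ratio by more than the SD between arrays, 201 of 259 values moved by less and 58 by more, 24 of these with median centring; an array alone lies within that SD by construction, and detection rules and Aquantile scaling leave ratios as they are. These values are not independent, since the scanner software's ratio and the deposited table were nearly the same. A member with 1 probe could not move with the choice of probe. No called member changed sign, and 27 of 37 members kept their sign in all 12 alternatives. With median centring no member was called lower, over all detected genes 45 were called higher and 19 lower in place of 387 and 243, and the medians were -0.13 for the hydrolases and -0.024 for all members; the cause was not tested. Ctsl, Mcoln1 and Gabarapl1 were then at -0.92, -1.07 and -0.94, and the median of all detected genes was 0.07. Taking the median over all probes of a gene, the medians were -0.16 for the hydrolases and -0.14 for all members, and with that of its detected probes only, chosen after seeing the data, -0.22 for the hydrolases. At 1.5-fold 6 members were called lower, 1 higher and 11 genes of the further lists were called in place of 3; at 3-fold no member was called lower. Each array alone gave 3 to 4 members called lower and 0 to 1 higher (Gusb without array 2), with medians of -0.36 to -0.29 for the hydrolases, -0.22 to 0.048 for the proton pump, -0.46 to -0.031 for the autophagy factors (with Gabarapl2, detected on either array taken alone) and -0.31 to -0.20 for all members. The software's ratio and the deposited table called the same 3 members, while over all detected genes they called 759 and 758 higher and 597 and 594 lower. Dim probes, 1 clone and 1 replicate of each line limit what can be read from these values.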
